A study of Rattus norvegicus with 12 samples.

Results

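Endoplasmic reticulum (ER) stress and integrated stress response genes were followed in cultured rat retinal ganglion cells (RGCs), which carry the output of the retina to the brain, after exposure to endothelin peptides. The group was a list of 36 genes chosen by function, with no threshold on a measured value. Earlier results of these data were known when the list was made, so its counts beside those of all probe sets are descriptive. It comprised 15 ER chaperones and folding enzymes, 7 genes of ER degradation and translocation, 4 genes for the stress sensors and Xbp1, and 10 genes of the ATF4 arm. A gene was measured by the probe sets annotated with its symbol alone, and 35 of the 36 genes had at least 1 such probe set. Ern1, which encodes the sensor IRE1, had none. The 35 genes were covered by 48 of the 31042 probe sets on the array, and each gene was represented by its probe set with the highest mean log2 signal over the arrays. All 35 representatives passed the filter on low signal, which kept 15521 probe sets.

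The cells came from Sprague-Dawley rat pups, taken at postnatal day 4-6, and were purified by panning on an antibody to Thy-1.1. All 4 groups shared 7 days of culture in serum-free DMEM with brain-derived neurotrophic factor at 50 ng/mL, ciliary neurotrophic factor at 10 ng/mL and forskolin at 5 ng/mL, and then a night without neurotrophic factors. The groups were no peptide (called untreated, although the sample descriptions say vehicle), and endothelin 1 (ET-1), 2 (ET-2) or 3 (ET-3) at 100 nM for 24 h. Each group had 3 Affymetrix Rat Genome 230 2.0 arrays, numbered 1 to 3 as biological replicates. The labels do not give the number of pups behind an array or say what a replicate number shares across groups.

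The unfolded protein response is the reaction of a cell to misfolded protein in the ER. The sensors ATF6 and IRE1, the latter through splicing of the Xbp1 mRNA, lead to transcription of chaperones such as Hspa5 (BiP) and of the machinery that removes misfolded protein. The sensor PERK (Eif2ak3) slows translation by phosphorylating eIF2alpha and so favours translation of ATF4, whose targets include Ddit3 (CHOP), Trib3, Chac1 and enzymes of serine and asparagine synthesis. Other kinases of eIF2alpha reach ATF4 without ER stress, and that wider route is called the integrated stress response. Splicing of Xbp1, cleavage of ATF6 and translation of Atf4 are not visible in the signal of a gene-level probe set. Endothelins are vasoactive peptides that act on the receptors EDNRA and EDNRB, which signal in part through calcium release from the ER.

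The ER stress response element (ERSE) is the promoter sequence through which ATF6 acts on chaperone genes. It is shown here because 6 of 12 chaperones searched held an exact match and none of the 10 genes of the ATF4 arm did. It was searched as CCAAT, 9 bases of any kind and CCACG, on both strands, in RefSeq promoters of the rat build GRCr8 that span 250 bases before to 50 after a gene's start. The table held 30 of the 36 genes, without Pdia3, Pdia6, Manf, Derl1, Atf6 and Ern1. The element was found in 21 of 27457 promoters (0.0765%) and in 7 of the 30 (23.3%). Those were 6 of 12 chaperones, Xbp1, and none of the 10 genes of the ATF4 arm. Only exact matches were counted, so an element with a changed base or farther from the start was missed. The Ddit3 promoter held, on the opposite strand, a stretch that differs from the element at a base of the CCACG part. Matches follow 5′ to 3′ on the strand of the element, with the fixed bases in capitals.
Hspa5: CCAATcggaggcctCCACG
Hsp90b1, far match: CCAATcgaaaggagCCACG
Hsp90b1, near match: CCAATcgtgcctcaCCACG
Calr: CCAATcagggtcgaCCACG
Canx: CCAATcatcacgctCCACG
Creld2: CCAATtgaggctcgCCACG
Dnajc3: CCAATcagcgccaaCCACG
Xbp1: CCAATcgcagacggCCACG
The match of Hspa5 lay 43 to 25 bases before the start, and that of Xbp1 65 to 47 bases before it. The Creld2 match lay 145 to 127 bases before the start on the opposite strand, and the Calr match 232 to 214 bases before it, also on the opposite strand. Hsp90b1 had 2 matches, 176 to 158 and 72 to 54 bases before its start. A match describes the letters only. It is neither evidence of a bound site nor a cause of the values below.

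The 250 bases before the start are printed for Hspa5, Calr and Creld2, the genes of the list that both held the element and rose after endothelin. They are given on the strand of the gene with the element in capitals, which in Calr and Creld2 is read on the opposite strand.
Hspa5, chr3:38452766-38453015, plus strand of GRCr8: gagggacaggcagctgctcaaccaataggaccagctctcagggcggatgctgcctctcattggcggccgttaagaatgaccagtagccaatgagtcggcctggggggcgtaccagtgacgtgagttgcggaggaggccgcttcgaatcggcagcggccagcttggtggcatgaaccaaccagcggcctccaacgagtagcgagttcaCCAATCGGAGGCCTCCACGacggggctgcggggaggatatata
Calr, chr19:40213117-40213366, plus strand of GRCr8: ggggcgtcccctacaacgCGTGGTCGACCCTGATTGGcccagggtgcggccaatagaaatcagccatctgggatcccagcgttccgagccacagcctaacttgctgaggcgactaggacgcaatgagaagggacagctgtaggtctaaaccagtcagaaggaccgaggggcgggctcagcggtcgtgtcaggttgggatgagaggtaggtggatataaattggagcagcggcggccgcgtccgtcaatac
Creld2, chr7:121789134-121789383, plus strand of GRCr8: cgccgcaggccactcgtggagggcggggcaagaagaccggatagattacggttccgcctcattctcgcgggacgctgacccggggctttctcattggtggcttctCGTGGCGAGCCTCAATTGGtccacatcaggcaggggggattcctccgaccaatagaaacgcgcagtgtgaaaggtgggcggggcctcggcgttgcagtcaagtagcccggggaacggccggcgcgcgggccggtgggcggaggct
Of other elements of the pathway, ERSE-II (ATTGG, 1 base of any kind, CCACG) was found in 15 of 27457 promoters (0.0546%), among them Dnajb11, Hyou1 and Herpud1. The core TGACGTGG of the XBP1 element was found in 175 promoters (0.637%) and here only in Hyou1, where it overlaps an ERSE-II match. The core TGATGNAA of the C/EBP-ATF element, through which ATF4 acts, was found in 1048 promoters (3.82%) and here in Herpud1, Trib3 and Chac1, which made 2 of 10 genes of the ATF4 arm (20%).

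Signals are MAS5 values on a linear scale, with array medians from 136.0 to 181.0. Of 15 RGC markers 13 had a probe set, all above the filter, with summed signals from 93553.1 to 146729.9, lowest under replicate number 1. None of 7 photoreceptor markers passed the filter. Of 9 amacrine and bipolar markers 6 passed, with summed signals from 9855.3 to 11830.9, in which Pax6 weighed most. Of 9 microglia and macrophage markers 6 passed, with sums from 1918.0 to 4144.5. Of 7 endothelial and 7 oligodendrocyte markers 2 each passed. The 8 fibroblast markers summed to 58925.2 to 64912.8 on the 4 arrays numbered 1, to 11521.6 to 14855.1 on those numbered 2, and to 9425.5 to 11212.9 on those numbered 3. Against the untreated array of the same number, Fn1 was higher on all 9 endothelin arrays. Ogn and Col3a1 were lower on all 9, and the rest were mixed. Under number 1 Ogn read 6480.0 untreated and 2603.5 to 2773.7 with the peptides. Markers of other cells also differed with treatment. The summed signal of 9 astrocyte and Müller glia markers, 5 of them above the filter (Gfap, Rlbp1, Aqp4 and S100b were not), was higher than on the untreated array of the same number on all 9 endothelin arrays, by 0.33 to 0.77 on the log2 scale. Vim, Gja1 and Clu were higher on all 9, while Glul was lower on the 3 endothelin arrays numbered 1 and the 3 numbered 3, and Slc1a3 on those numbered 2 and 3. The summed signal of 8 pericyte and smooth muscle markers, again 5 above the filter (Rgs5, Cspg4 and Des were not), was higher on all 9 by 0.38 to 1.13, and both differences were largest under number 1. Tagln had the highest signal of these markers on every array and weighs most in the sum. It read 2708.5 untreated and 5308.2 after ET-1 under number 1. Acta2, Tagln, Pdgfrb, Myh11 and Cnn1 were each higher on all 9, Myh11 by little under number 1 (148.2 against 149.3 to 156.2). The part of these cells in the values below was not tested. In bulk samples more or fewer cells of a type cannot be told apart from more or less RNA per cell.

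**Figure D1:**
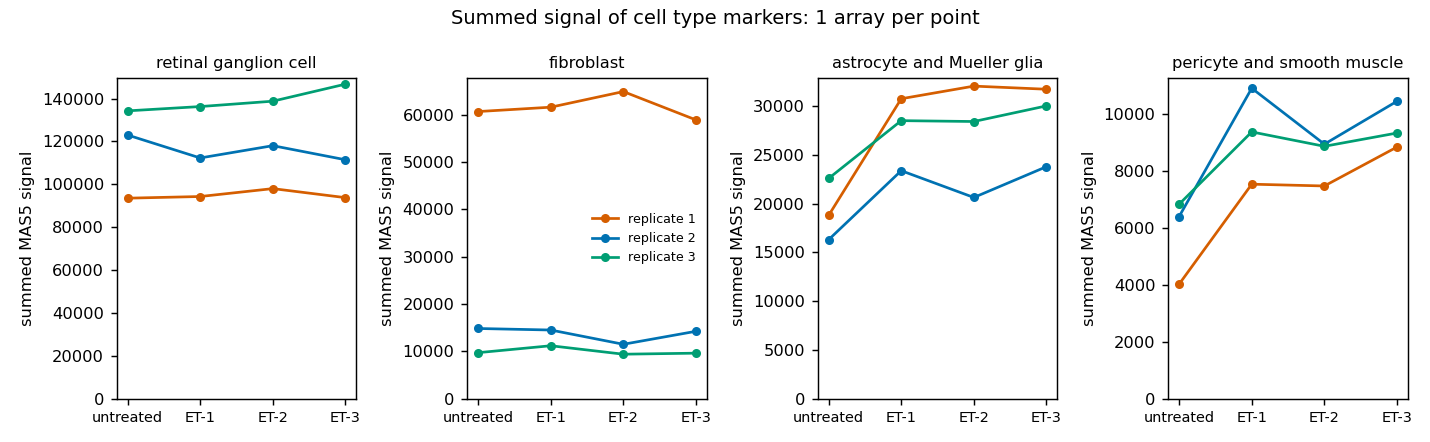
Summed MAS5 signal (linear axis from 0) of marker genes of 4 cell types on each of the 12 arrays, with 1 line per replicate number. The fibroblast sum separates replicate number 1 from numbers 2 and 3 in every group, and the glial and pericyte sums are higher on each endothelin array than on the untreated array of the same number.

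After 24 h of endothelin, 6 of the 35 measured genes rose when arrays were paired by replicate number, and none rose when they were not. They were the chaperones and folding enzymes Hspa5, Calr, Pdia6 and Creld2, the degradation factor Edem1 and the translocon subunit Sec61b. Their increases in the mean of the 3 endothelins against untreated ran from 1.18-fold (Hspa5) to 1.38-fold (Creld2). No gene of the list was called lower, and none of the 10 genes of the ATF4 arm was called in either direction. These calls come from limma with the replicate number as a block (the paired fit, adjusted p under 0.05 over all 15521 probe sets), which called 758 probe sets in this comparison (4.88%), 549 of them higher (3.54%). Without the block, limma called 0 genes of the list and 0 probe sets in all (0%) in each comparison, and 1 gene of the list, Derl2, had an unadjusted p under 0.05 in this one, as did 397 probe sets. The numbers of biological replicates paired the arrays: deviations from the group means correlated between 0.684 and 0.912 in all 18 pairs of arrays with the same number. The block leaves the fold changes as they are.

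The calls in the paired fit depended on which arrays were included. With replicate number 1 left out, none of the 35 genes was called in the mean comparison, and with number 2 left out only Pdia6 was. With number 3 left out 7 were, among them Hspa5, Calr, Pdia6, Edem1 and Sec61b but not Creld2. Without number 1 the log2 changes of the 6 genes stayed positive, from 0.19 (Hspa5) to 0.32 (Creld2). Fits without a replicate number have fewer arrays. Counts over all probe sets are not given for the fits with arrays left out. Whether the loss of calls is particular to these genes was not tested. Leaving out the untreated array alone gave 1 call for number 1 (Pdia6), 3 for number 2 and 9 for number 3. When every array was centred on its median, 2 were called, Pdia6 and Creld2. That centring also turned the direction of the calls over all probe sets: 72.4% of 758 were higher as deposited and 28.6% of 1492 after centring. Quantile normalization left 6 genes of the list called, and 75.9% of the 630 probe sets called were higher. Array medians, which include the probe sets below the filter, were higher than untreated under numbers 2 and 3. The largest shift was 0.15 on the log2 scale, after ET-2 under number 3. Under number 1 the shifts were -0.027, 0.0 and -0.021 for ET-1, ET-2 and ET-3. Over the tested probe sets the median log2 difference was negative for each peptide under each number, from -0.063 to -0.005.

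Over the list as a whole, 26 of 35 genes had a higher mean after endothelin, with a median log2 change of 0.11. Over all tested probe sets 41.9% were higher, with a median of -0.03. After centring, 20 of 35 were higher, with a median of 0.05, against 28.3% and -0.085 over all probe sets. The chaperones had a median of 0.19 and 14 of 15 were higher. The degradation and translocation genes had a median of 0.16 with 4 of 7 higher, the sensors and Xbp1 0.03 with 2 of 3 higher, and the ATF4 arm 0.005 with 6 of 10 higher. After centring these medians were 0.135, 0.10, -0.03 and -0.05, as centring moves every gene of an array by the same amount. After quantile normalization they were 0.205, 0.13, 0.025 and -0.01. Each comparison with untreated uses the same 3 untreated arrays.

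**Figure D2:**
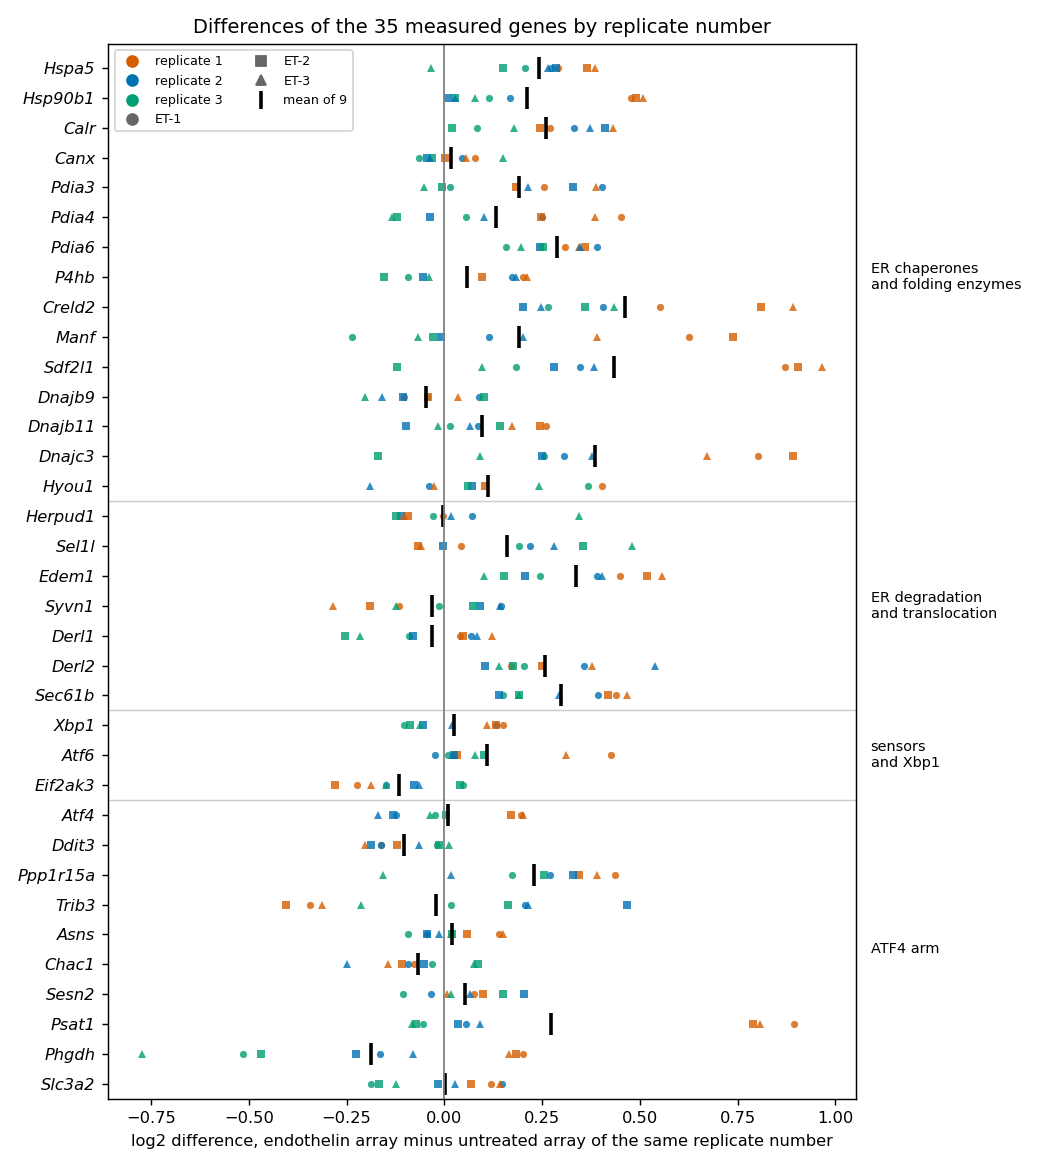
Log2 difference between each endothelin array and the untreated array of the same replicate number for the 35 measured genes, ordered by role; colours mark the replicate number, symbols the peptide, and the black bar the mean of 9 differences. For 12 of 15 chaperones and 23 of 35 genes the highest of the 3 mean differences, 1 per number, belongs to replicate number 1. The share of all probe sets with this order was not counted. Over all tested probe sets the mean differences spread most under number 1, with SDs of 0.354, 0.269 and 0.216 under numbers 1, 2 and 3. Their medians were -0.067, -0.015 and -0.01.

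Pdia6, a protein disulfide isomerase that rearranges disulfide bonds, was the 1 gene of the list called for each of the 3 peptides. Its signal was 3847.4, 2325.7 and 2912.5 on the untreated arrays numbered 1, 2 and 3. It was 4761.9, 3046.7 and 3246.7 after ET-1, 4934.6, 2755.1 and 3466.9 after ET-2, and 4886.4, 2955.9 and 3333.1 after ET-3. All 9 endothelin arrays were above the untreated array of their number, while the groups overlapped when numbers were ignored. The log2 change was 0.29 ± 0.05 (SE; 95% interval 0.19 to 0.39; adjusted p = 0.00423 in the paired fit). Without replicate number 1 the change was 0.26 with adjusted p = 0.0763, and Pdia6 was called in the other 18 of 19 alternatives run within the paired fit.

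Creld2, a disulfide isomerase-like protein induced by ER stress, had the largest change of the called genes. Its untreated signal was 614.7, 330.1 and 353.6. It read 901.3, 437.1 and 424.7 after ET-1, 1077.9, 379.5 and 453.9 after ET-2, and 1140.0, 391.4 and 477.3 after ET-3. Every endothelin array exceeded the untreated array of its number, and the arrays numbered 1 stood apart, the untreated one included. Creld2 changed by 0.46 ± 0.10 on the log2 scale (adjusted p = 0.0223), made of 0.75, 0.28 and 0.35 under numbers 1, 2 and 3. It was not called without replicate number 1 (0.32, adjusted p = 0.256), number 2 (adjusted p = 0.051), number 3 (adjusted p = 0.0813) or the untreated array numbered 1 (adjusted p = 0.159).

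Calr (calreticulin), the lectin chaperone of the ER lumen and a binder of its calcium, differed more between replicate numbers than between treatments. Its signal was 1301.2, 816.8 and 2694.0 untreated, a 3.3-fold spread. It was 1569.9, 1027.1 and 2853.8 after ET-1, 1541.9, 1085.9 and 2730.5 after ET-2, and 1752.6, 1057.7 and 3047.0 after ET-3. All 9 differences within a number were positive, the smallest under number 3. Calr changed by 0.26 ± 0.06 on the log2 scale (adjusted p = 0.0263). The call was lost without replicate number 1 (adjusted p = 0.206), without number 2 (adjusted p = 0.188), without the untreated array numbered 1 or 2 (adjusted p = 0.129 and 0.133) and without the ET-3 array numbered 1 or the ET-1 array numbered 2 (adjusted p = 0.0526 and 0.0529).

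Hspa5 (BiP), the Hsp70 chaperone of the ER and the usual readout of the unfolded protein response, gave 6786.4, 4913.2 and 5121.1 on the untreated arrays. It gave 8299.5, 5937.1 and 5908.1 after ET-1, 8737.9, 5991.8 and 5677.0 after ET-2, and 8866.4, 5905.7 and 5000.3 after ET-3. Of the 9 endothelin arrays 8 were higher than the untreated array of their number, and ET-3 numbered 3 was lower. Its mean log2 change was 0.24 ± 0.06 (95% interval 0.12 to 0.36; adjusted p = 0.025). It was not called without replicate number 1 or 2 (adjusted p = 0.201 and 0.187), without the untreated array numbered 1 or 2 (adjusted p = 0.153 and 0.0893), or without the ET-2 array numbered 1 or the ET-1 array numbered 3 (adjusted p = 0.0525 and 0.0503).

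**Figure D3:**
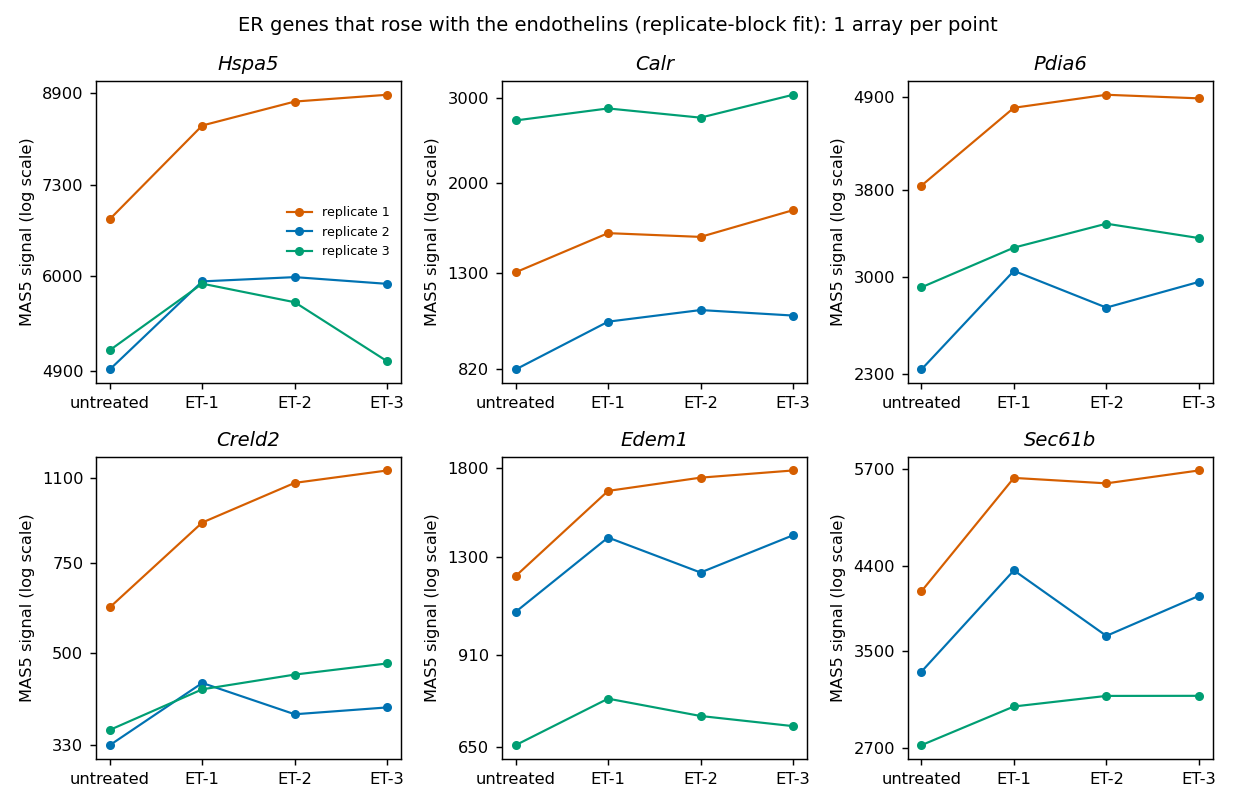
MAS5 signal (log axis) of the 6 genes called in the paired fit, 1 point per array and 1 line per replicate number across the untreated, ET-1, ET-2 and ET-3 groups. Each line lies higher at the endothelins than at untreated, except Hspa5 under number 3 after ET-3 (5000.3 against 5121.1), and the lines differ in level, as for Calr, where untreated arrays read from 816.8 to 2694.0.

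Among the 11 chaperones that were not called, 2 had larger changes than Hspa5 with a wider spread between numbers. Sdf2l1, a component of the BiP chaperone complex, read 408.9, 266.0 and 336.0 untreated, 747.5, 338.3 and 381.6 after ET-1, 765.1, 323.1 and 309.0 after ET-2, and 798.2, 346.6 and 359.2 after ET-3. Its log2 change was 0.43 ± 0.13 (adjusted p = 0.0726), with 0.91 under number 1 and 0.05 under number 3. Dnajc3 (p58IPK), a BiP co-chaperone and inhibitor of PERK, had 549.7, 437.0 and 423.3 untreated, 957.9, 540.4 and 504.7 after ET-1, 1019.1, 519.3 and 376.5 after ET-2, and 875.3, 567.9 and 450.6 after ET-3. It changed by 0.39 ± 0.12 (adjusted p = 0.0898), again most under number 1, at 0.79. The highest values of both genes were those of the endothelin arrays numbered 1. Of the untreated arrays, the one numbered 1 was also the highest for both.

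Hsp90b1 (GRP94), the Hsp90 of the ER, was higher on 9 of 9 endothelin arrays, with 4852.1 untreated against 6759.3, 6808.3 and 6904.4 under number 1. Under number 2 it read 3870.5 against 4349.5, 3892.7 and 3943.3, and under number 3 4591.9 against 4964.6, 4677.1 and 4851.7, so that the change under these numbers was small. Its log2 change was 0.21 ± 0.07 (adjusted p = 0.101). Manf, a secreted survival factor released on ER stress, changed by 0.585, 0.10 and -0.11 under numbers 1, 2 and 3, with a mean of 0.19 ± 0.11 (adjusted p = 0.33). Pdia3, the isomerase that works with calreticulin and calnexin, gave 0.19 ± 0.07 (adjusted p = 0.116). Its second tested probe set gave -0.08 (adjusted p = 0.731), so the 2 differ in sign.

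The other 6 chaperones had log2 changes from -0.05 to 0.13. They were Pdia4 (0.13), Hyou1 (0.11), Dnajb11 (0.10), P4hb (0.06), Canx (0.02) and Dnajb9 (-0.05), and their adjusted p in the paired fit lay between 0.291 and 0.864. Canx (calnexin), the membrane-bound partner of calreticulin, had 3 tested probe sets, at 0.02, 0.125 and 0.16. Of the 6 chaperones with an ERSE in the promoter, Hspa5, Calr and Creld2 were called, Hsp90b1 and Dnajc3 were not, and Canx had a change of 0.02. Xbp1, which also held the element, changed by 0.03. Of the other called genes, Edem1 and Sec61b held no exact match and the Pdia6 promoter was not searched. A relation between the element and the changes was not tested.

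Of the 7 genes of ER degradation and translocation, Edem1 and Sec61b rose. Sec61b, the beta subunit of the channel through which new proteins enter the ER, read 4109.2, 3311.2 and 2718.1 untreated. It read 5572.6, 4346.9 and 3015.8 after ET-1, 5491.7, 3645.5 and 3102.7 after ET-2, and 5685.0, 4059.0 and 3103.4 after ET-3. Each of the 9 endothelin arrays was above the untreated array of its number. The log2 change was 0.30 ± 0.06 (95% interval 0.18 to 0.42; adjusted p = 0.00924). The call was lost without replicate number 1 (adjusted p = 0.142), number 2 (adjusted p = 0.062) or the untreated array numbered 1 (adjusted p = 0.0706).

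Edem1, a lectin that hands misfolded glycoproteins to degradation, gave 1212.7, 1064.2 and 654.7 untreated. It gave 1654.5, 1395.9 and 775.7 after ET-1, 1736.4, 1228.7 and 728.2 after ET-2, and 1782.5, 1407.4 and 701.8 after ET-3, above the untreated array of the same number in 9 of 9. Edem1 changed by 0.34 ± 0.07 on the log2 scale (adjusted p = 0.0182). A second tested probe set of Edem1 gave 0.37 ± 0.17 (adjusted p = 0.232). The call was lost without replicate number 1 (adjusted p = 0.203), number 2 (adjusted p = 0.138), or the untreated array numbered 1 or 2 (adjusted p = 0.125 and 0.0679).

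Derl2, a subunit of the channel that returns proteins to the cytosol, was also higher on 9 of 9 arrays. It read 566.9, 511.7 and 562.0 untreated, 638.5, 655.0 and 647.1 after ET-1, 673.9, 550.2 and 635.0 after ET-2, and 736.1, 743.4 and 618.7 after ET-3. Its untreated arrays agreed within 1.11-fold, and only the ET-2 array numbered 2 fell within the untreated range. The log2 change was 0.26 ± 0.08 (adjusted p = 0.0896), and its other probe set, of lower signal, gave -0.11 (adjusted p = 0.535). Herpud1, Syvn1, Derl1 and Sel1l, which serve the same degradation route, changed by -0.004, -0.03, -0.03 and 0.16, with adjusted p from 0.458 to 0.983.

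Counted over the whole list, 7 of 35 genes were higher on all 9 endothelin arrays than on the untreated array of the same number: Hsp90b1, Calr, Pdia6, Creld2, Edem1, Derl2 and Sec61b. Over all tested probe sets that held for 868 (5.59%), while 1250 (8.05%) were lower on all 9 and no gene of the list was. After centring on array medians, 3 genes stayed higher on all 9 (Pdia6, Creld2 and Edem1), against 2.8% of probe sets. Eif2ak3, Ddit3 and Chac1 were then lower on all 9, against 15.9%.

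The sensors and Xbp1 were not called. Xbp1, whose spliced form is the transcription factor of the IRE1 branch and whose promoter held an ERSE, read 3453.9, 2777.3 and 3037.9 untreated. It read 3832.2, 3045.4 and 2827.6 after ET-1, 3783.5, 2672.2 and 2857.3 after ET-2, and 3723.7, 2815.7 and 2910.8 after ET-3. The groups overlapped, with differences of 0.13, 0.03 and -0.085 under numbers 1, 2 and 3. The log2 change was 0.03 with a 95% interval from -0.08 to 0.13 (adjusted p = 0.801). Atf6 changed by 0.11 ± 0.075 (adjusted p = 0.432), most of it under number 1 (0.26). Eif2ak3 (PERK) changed by -0.12 ± 0.06 (95% interval -0.25 to 0.02; adjusted p = 0.294).

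In the ATF4 arm none of 10 genes was called, and the changes of the usual readouts were small. Atf4 itself read 9616.3, 11286.6 and 10638.2 untreated. It read 11009.5, 10366.1 and 10469.3 after ET-1, 10826.0, 10305.4 and 10659.6 after ET-2, and 11055.0, 10021.9 and 10366.1 after ET-3. It was higher with the peptides under number 1, lower under number 2 and mixed under number 3. The mean log2 change was 0.01 with a 95% interval from -0.10 to 0.12 (adjusted p = 0.939).

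Ddit3 (CHOP), a transcription factor of prolonged ER stress, read 1029.6, 1398.4 and 2109.3 untreated. It read 921.1, 1248.8 and 2082.4 after ET-1, 946.7, 1227.9 and 2090.3 after ET-2, and 894.6, 1336.9 and 2126.8 after ET-3. It was lower than the untreated array of its number on 8 of 9 arrays, and its untreated level differed 2.05-fold between numbers. The log2 change was -0.10 ± 0.05 (95% interval -0.22 to 0.01; adjusted p = 0.279). Chac1, which degrades glutathione and is a sensitive ATF4 target, ran from 1785.6 to 2098.4 untreated and from 1618.9 to 2023.0 with the peptides, with a change of -0.07 ± 0.055 (adjusted p = 0.517). Trib3, a pseudokinase induced by ATF4 and CHOP, changed by -0.35, 0.30 and -0.01 under numbers 1, 2 and 3, with a mean of -0.02 ± 0.12 (adjusted p = 0.937). Its other 2 probe sets gave 0.02 and 0.055.

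The 2 largest positive changes in this arm were in Psat1 and Ppp1r15a, and neither was called. Psat1, an enzyme of serine synthesis, read 1903.1, 1654.5 and 1186.7 untreated, 3540.0, 1717.2 and 1142.5 after ET-1, 3289.6, 1696.2 and 1129.1 after ET-2, and 3331.9, 1760.7 and 1120.1 after ET-3. It was higher by 0.83 on the log2 scale under number 1 alone, by 0.06 under number 2, and lower by 0.07 under number 3. The mean change was 0.27 ± 0.12 (adjusted p = 0.208). Ppp1r15a (GADD34), which brings the phosphatase back to eIF2alpha, read 405.9, 344.0 and 434.3 untreated, 549.0, 414.6 and 489.5 after ET-1, 515.7, 432.1 and 518.6 after ET-2, and 532.0, 347.8 and 389.2 after ET-3. It was higher on 8 of 9 arrays, by 0.23 ± 0.09 in the mean (adjusted p = 0.166).

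Phgdh, which opens serine synthesis, changed by 0.18, -0.16 and -0.59 under numbers 1, 2 and 3, with a mean of -0.19 ± 0.11 (adjusted p = 0.356). Asns (asparagine synthetase), Sesn2 (sestrin 2) and Slc3a2 (the heavy chain of amino acid exchangers) changed by 0.02, 0.05 and 0.001, with 95% intervals that stayed within -0.11 and 0.17. Another probe set of Sesn2 did not pass the filter, with signals from 30.2 to 95.1. It was higher on 9 of 9 endothelin arrays, by 0.655 in the mean. The difference between the medians of this arm (0.005) and of the chaperones (0.19) was not tested.

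**Figure D4:**
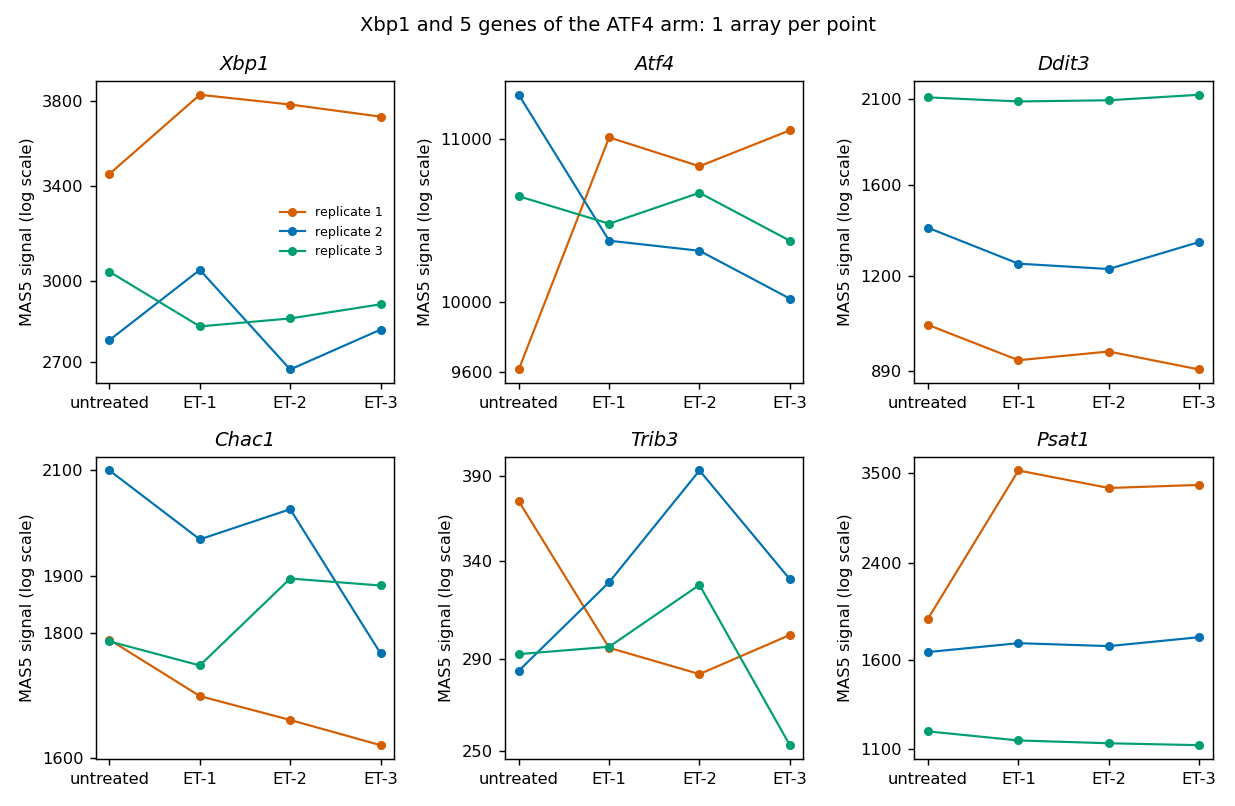
MAS5 signal (log axis) of Xbp1 and 5 genes of the ATF4 arm, 1 point per array and 1 line per replicate number. Psat1 reads 1903.1 untreated under number 1 and at least 3289.6 there with the peptides, with nearly level lines under numbers 2 and 3, and Ddit3 lies lower with the peptides under numbers 1 and 2.

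The 3 peptides were then taken singly. In the paired fit ET-1 called 2 of the 35 genes, Pdia6 (0.285 ± 0.06; adjusted p = 0.0265) and Sec61b (0.33 ± 0.07; adjusted p = 0.0295), against 268 probe sets in all (1.73%; higher 1.51%). ET-2 called Pdia6 (0.285 ± 0.06; adjusted p = 0.0313), against 249 (1.6%; higher 1.28%). ET-3 called 4, against 410 (2.64%; higher 2.13%). They were Pdia6 (0.295 ± 0.06; adjusted p = 0.0185), Sec61b (0.32 ± 0.07; adjusted p = 0.0283), Calr (0.33 ± 0.07; adjusted p = 0.034) and Creld2 (0.52 ± 0.13; adjusted p = 0.046). Limma without the block called 0 in each, with 237, 223 and 297 probe sets at an unadjusted p under 0.05 for ET-1, ET-2 and ET-3. After centring, none of the 35 was called for any single peptide, and the share of higher calls over all probe sets went from 87.3% to 82.0% for ET-1, from 79.9% to 15.8% for ET-2 and from 80.7% to 51.1% for ET-3. After quantile normalization 2, 1 and 3 of the 35 were called for ET-1, ET-2 and ET-3, against 246, 189 and 345 probe sets in all.

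Leaving out arrays moved these counts from 0 to 9 for ET-1, from 0 to 5 for ET-2 and from 0 to 7 for ET-3. The highest counts came without the untreated array numbered 3. None was called for ET-1 without replicate number 1 or 2, without the untreated array numbered 1 or 2 or without the ET-1 array numbered 1 or 2. For ET-2 only the omission of the untreated array numbered 3 (5) or of the ET-2 array numbered 2 (1) left any call. For ET-3 none was called without replicate number 1 or 2, without the untreated array numbered 1, or without the ET-3 array numbered 1 or 2, and 1 was called without the untreated array numbered 2. The matching counts over all probe sets are not given, and whether these shifts in count are particular to the list was not tested.

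The chaperone medians by peptide were 0.24 for ET-1, 0.175 for ET-2 and 0.18 for ET-3, and each was largest under replicate number 1. They were 0.31, 0.25 and 0.08 for ET-1 under numbers 1, 2 and 3, 0.25, 0.07 and 0.02 for ET-2, and 0.39, 0.20 and 0.08 for ET-3. The ATF4 arm had 0.13, -0.04 and -0.04 for ET-1, 0.08, -0.03 and 0.01 for ET-2, and 0.15, 0.0 and -0.06 for ET-3. The medians over all numbers were -0.01, 0.01 and 0.01 in that arm. Among the 15 chaperones the untreated signal itself was highest under number 1 in 10, and the share over all probe sets was not counted.

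**Figure D5:**
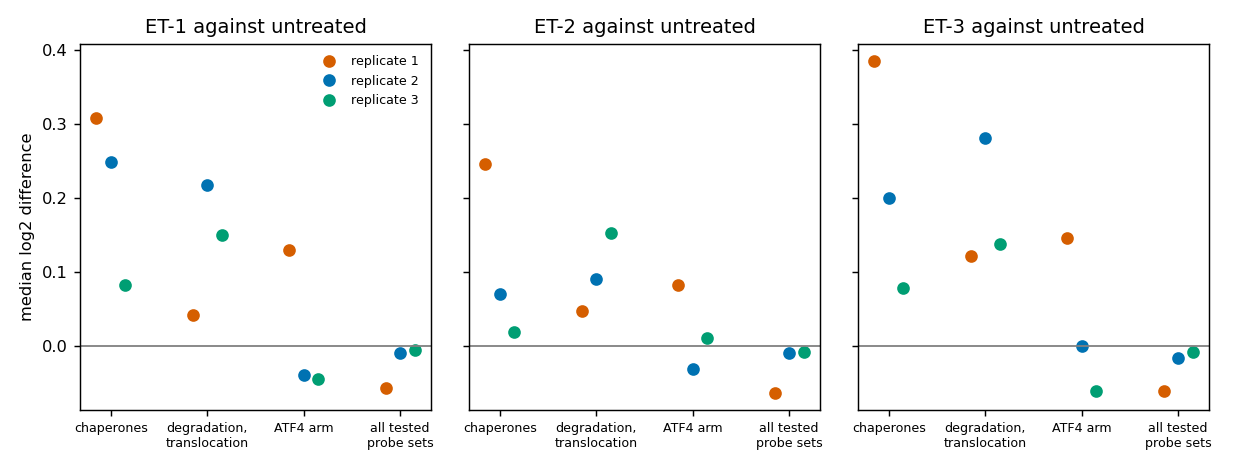
Median log2 difference from the untreated array of the same replicate number for the chaperones, the degradation and translocation genes, the ATF4 arm and all tested probe sets, 1 panel per peptide and 1 point per replicate number. Under number 1 the chaperone medians are 0.31, 0.25 and 0.39 for ET-1, ET-2 and ET-3, and those of the ATF4 arm are 0.13, 0.08 and 0.15. Over all numbers the ATF4 arm medians lie between -0.06 and 0.15.

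ET-1, ET-2 and ET-3 are peptides of 1 family and were applied at the same dose for the same time, so the 3 pairs were compared directly. With p-values adjusted over all 15521 probe sets within a pair, 0 of 35 genes and 0 probe sets (0%) differed in any pair, with or without the block. At an unadjusted p under 0.05 in the paired limma fit there were 2 genes of the list for ET-2 against ET-1, 0 for ET-3 against ET-1 and 2 for ET-3 against ET-2, beside 574, 347 and 583 probe sets. For ET-2 against ET-1 the difference largest in size was in Pdia4, a protein disulfide isomerase, at -0.22 (95% interval -0.41 to -0.04). For ET-3 against ET-1 it was in Hyou1, a large Hsp70-like chaperone, at -0.24 (-0.52 to 0.05). For ET-3 against ET-2 it was in Ppp1r15a, at -0.23 (-0.47 to 0.01), where the ET-3 arrays numbered 2 and 3 read 347.8 and 389.2 against 432.1 and 518.6 with ET-2, and that numbered 1 read 532.0 against 515.7. Each of these 3 intervals holds a difference as large as the change of Pdia6 against untreated (0.29).

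A further 101 genes of the same pathways were listed, of which 97 had a probe set and 89 passed the filter. In the paired fit none was called for a single peptide, and 1 of 89 was called in the mean comparison, with none lower, against 4.88% of all probe sets (higher 3.54%). Without the block limma called none. That gene was Kdelr3, a receptor that returns chaperones with a KDEL tail to the ER. It read 477.8, 187.2 and 179.1 untreated, 526.3, 315.9 and 256.7 after ET-1, 602.8, 252.4 and 243.0 after ET-2, and 550.5, 288.0 and 219.7 after ET-3. It was higher on 9 of 9 arrays, by 0.42 ± 0.11 (adjusted p = 0.0437). By subgroup, beside 41.9% of all tested probe sets, 18 of 20 further folding and glycosylation genes had a positive change (median 0.09), as had 14 of 19 degradation and translocation genes (0.04), 11 of 18 ATF4 targets and amino acid genes (0.05), 6 of 12 aminoacyl-tRNA synthetases (-0.004) and 9 of 20 sensors, kinases and transcription factors (-0.015).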

How the data were processed

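RNA was measured in 4 groups of 3 samples on 12 Affymetrix Rat Genome 230 2.0 arrays. The deposited values are intensities on a linear scale, 1 per probe set, made by the authors with MAS5 per the submitters' processing notes, with a version not given in the sources used here. Trimmed means (2% at each end) were 496.7 to 498.3 on all arrays. The number of arrays limits the precision, and if replicates were not separate cultures the p-values measure technical spread only. The deposited intensity was taken as log2 without a pseudocount or further normalization. Of 31042 probe sets, 20826 had 1 symbol, 436 several and 9780 none in the platform annotation; 20758 of the former were in RefSeq by Entrez ID and 0 symbols changed. Probe sets with a mean log2 at or above the median (signal 147.5) were tested, 15521 in all. Limma 3.58.1 in R 4.3.3 fitted group means over all arrays with an intensity trend, without and with the replicate number as a block; SEs, intervals and adjusted p in the text are from the fit with the block unless stated. P-values are two-sided, with Benjamini-Hochberg adjustment over 15521 probe sets. The replicate numbers were taken as pairing the arrays because all 18 same-number correlations of deviations were over 0.1 (0.684 to 0.912; -0.706 to -0.056 between numbers across groups); the pairing rests on the values, not on the labels. With the block the median residual SD was 0.127 (6 residual degrees of freedom), and without it 0.25 (8). The fit was tested on simulated data. Named in full are the called genes, the 3 smallest p of each role and Hspa5, Ddit3, Atf4, Xbp1, Trib3 and Chac1; other genes named were chosen after their values were seen. The genes and lists were chosen with earlier results of these data known. Alternatives were the block, the filter, a pseudocount of 16, centring, quantile normalization, the groups in the fit, other probe sets and each replicate or array left out.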

Additional observations from a re-analysis of the deposited data

How the results depend on the processing

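Against untreated, limma without the block called 0 of the 35 genes for ET-1, ET-2, ET-3 and their mean, also under every alternative and with any array left out, and with the replicate block 2, 1, 4 and 6. In the paired fit without a filter on low signal the calls for ET-1, ET-2 and ET-3 were 0, 0 and 1, with arrays centred on their medians 0, 0 and 0 (2 for the mean), and with only the 2 groups compared in the fit 0, 0 and 0. Quantile normalization gave 2, 1 and 3, and 6 for the mean. Leaving out a replicate number or an array gave 0 to 9 calls for ET-1, 0 to 5 for ET-2, 0 to 7 for ET-3 and 0 to 9 for the mean. The chaperone median log2 change then ran from 0.076 to 0.391 for ET-1, from -0.002 to 0.344 for ET-2, from 0.035 to 0.356 for ET-3 and from 0.073 to 0.295 for the mean, and that of the ATF4 arm from -0.066 to 0.052, -0.039 to 0.041, -0.045 to 0.07 and -0.036 to 0.048. Centring moved the ATF4 arm under ET-2 to -0.084. The pairs of endothelins gave 0 under each alternative run. All called log2 changes stayed positive. Counts over all probe sets are not given for the fits without the filter, with only 2 groups or with arrays left out. Apart from the filter, where more probe sets were tested, and the fits with fewer arrays, the cause was not tested. Of the further pathway genes, the block also decided the call of Kdelr3. Dropping a single array also unbalances the replicate numbers in the medians, and with 3 arrays a group small changes cannot be told from the spread.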
